A study of Rattus norvegicus with 40 samples.

Results

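Hippocampal transcripts were compared between female rats fed lead after birth and unexposed female controls, with 4 arrays a side. The exposed females received control chow with 750 ppm lead acetate from birth until postnatal day 45 and then control chow until they were killed at postnatal day 55 (title numbers 2821 to 2824). The females labelled control had 0 ppm lead (title numbers 1974 to 1977). The groups were chosen by these labels alone and hold 8 of the 40 arrays of the series, which also covers males, 250 ppm and a perinatal window, in which dams ate lead chow from 10 days before breeding until weaning. Each array measured 100 ng of total RNA from a flash-frozen hippocampus, as log2 signals of 29214 probe sets. Of these, 15310 carried 1 gene symbol, and 14506 genes were each represented by their brightest probe set. Strain, litter and blood lead are not given in the sources used here, so p-values measure the spread between these samples only. The question was which transcripts differed at postnatal day 55, after 10 days off lead, between high-dose postnatal exposure and no exposure.

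Lead displaces zinc, calcium and iron at binding sites of proteins. Its textbook targets include delta-aminolevulinate dehydratase of heme synthesis and, in the hippocampus, the NMDA receptor, whose calcium entry drives the synaptic plasticity that learning depends on. Metallothioneins, heme enzymes, glutamate receptors, activity-induced genes and markers of each cell type were therefore looked at as lists. Differences are given as exposed minus control on the log2 scale. Called probe sets are those with an adjusted p under 0.05 from limma, a linear model with moderated variances fitted to all 40 arrays, with Benjamini-Hochberg adjustment over all probe sets.

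The 8 arrays were alike in overall signal, with medians of 7.0 to 7.04, pairwise correlations of 0.9939 to 0.9969 and a median SD of 0.11 among the 4 arrays of a group. The sex labels of some controls went against an X-linked transcript. Eif2s3, a translation initiation factor subunit, read 11.77, 11.71, 11.67 and 11.67 in the exposed females, and 11.28, 11.60, 11.30 and 11.76 in the arrays labelled female control. Exposed males of the series read 11.15 to 11.42. The libraries labelled female control replicates 1 and 3 thus lay in the male range, and male control replicate 4 (11.69) in the female range. The labels were kept. Values written as without female control replicates 1 and 3 leave out all 3 of these arrays. Title numbers of the exposed females also lie apart from those of the controls, so that a difference going with the numbers and one going with exposure cannot be told apart.

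Exposure to 750 ppm after birth went with few changes in single probe sets. The test called 4 probe sets, all higher in the exposed females, and 0 lower, which is 0.0137% of those tested. The called probe sets were Ldaf1, a protein that assembles lipid droplets together with seipin, and 3 probe sets without a gene symbol in the annotation used. An unadjusted p under 0.05 was reached by 1047 probe sets (3.58%). The count was 2 without exposed replicate 3 and 7 without female control replicate 3.

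Ldaf1 (lipid droplet assembly factor 1, probe set 10940603) had signals of 8.81, 8.99, 9.03 and 8.83 in the exposed females and 8.28, 8.0, 8.21 and 8.10 in the controls. All 4 exposed values lay above all 4 control values, and the spread within each group was a fraction of the gap between them. The means were 8.92 ± 0.11 and 8.15 ± 0.12 (SD, n = 4 each), a rise of 0.77 (SE 0.13) or 1.70-fold, with an adjusted p of 0.00691 in limma. Without exposed replicate 3 the difference was 0.73 with an adjusted p of 0.0557, and without female control replicate 2 it was 0.72 with an adjusted p of 0.0523 in limma. It was 0.87 without female control replicates 1 and 3 (adjusted p = 0.035 in limma), and 0.77 against all 8 controls of both sex labels taken as 1 group.

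Lyrm1, a small protein of the LYR-motif family, lies 2 genes from Ldaf1 on the same chromosome, with Dnah3 between them, which had no probe set of its own here. Its signals were 9.40, 9.44, 9.41 and 9.33 in the exposed females and 9.17, 9.13, 9.18 and 9.05 in the controls. These values do not overlap either, but the difference of 0.26 (SE 0.07) did not pass (adjusted p = 0.577 in limma). Across all 40 arrays Lyrm1 was the gene whose signal went most closely with that of Ldaf1 (Pearson r = 0.91), followed by Idnk (0.68), Gfus (0.66), Rbm3 (0.65) and Akr7a3 (0.64). These correlations run over exposed and control arrays together and are given as a description. The other measured neighbours within 4 genes, Rexo5, Dcun1d3, Zp2 and Crym, differed by -0.01 to 0.08, none of them called.

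Because the signals of Ldaf1 and Lyrm1 went together, their promoters are shown, from 250 bases before to 50 after the gene start, as RefSeq gives them on build GRCr8. Both are on the plus strand, Ldaf1 at chr1:183915669-183915968 and Lyrm1 at chr1:183716288-183716587. Capitals mark a match to the core of the metal response element, the motif read by the zinc-sensing factor MTF-1 and searched as TGCACNC or TGCGCNC on both strands.
Ldaf1: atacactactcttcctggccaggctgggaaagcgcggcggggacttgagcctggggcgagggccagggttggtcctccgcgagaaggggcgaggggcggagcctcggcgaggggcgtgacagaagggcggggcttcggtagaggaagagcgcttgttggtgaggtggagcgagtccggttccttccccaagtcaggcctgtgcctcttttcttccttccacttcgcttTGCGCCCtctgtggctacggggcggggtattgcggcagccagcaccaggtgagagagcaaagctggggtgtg
Lyrm1: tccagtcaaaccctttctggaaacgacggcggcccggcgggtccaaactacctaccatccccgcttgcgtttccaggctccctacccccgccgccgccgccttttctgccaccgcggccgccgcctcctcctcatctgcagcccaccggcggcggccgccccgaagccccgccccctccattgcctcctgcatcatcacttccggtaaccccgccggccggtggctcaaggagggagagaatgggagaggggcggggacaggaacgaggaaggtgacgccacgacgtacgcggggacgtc
The Ldaf1 window holds 1 match, TGCGCCC, which begins at position 229 of the window, and the Lyrm1 window holds 0. Such a match occurs in 24.2% of 33469 promoters of this length. The antioxidant response element, searched as TGACNNNGC, was in neither window and is in 12.1% of promoters.

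The lipid droplet list around Ldaf1 did not move with it. Seipin (Bscl2), the partner of Ldaf1 in droplet assembly, read 8.80, 8.64, 8.60 and 8.67 in the exposed females and 8.74, 8.71, 8.67 and 8.63 in the controls, a difference of -0.01 (SE 0.06) that turned to 0.01 without female control replicates 1 and 3. The droplet-associated hydrolase Ldah differed by 0.09 (SE 0.11). Of the 29 measured members, 1 was called, which is Ldaf1 itself. The other 28 members had differences of -0.09 to 0.10, with a median of 0.02, against a median of 0.01 over all genes. The lipase coactivator Abhd5 (0.10) and the lipase Pnpla3 (-0.09) stood at the ends of that range.

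Among the probe sets without a symbol, 10919231 had the largest difference. It read 6.78, 6.54, 6.67 and 6.78 in the exposed females and 5.65, 5.24, 5.39 and 5.73 in the controls. No exposed value came near the control values, and the rise was 1.19 (SE 0.14), or 2.28-fold, with an adjusted p of 1.08e-05 in limma. Probe set 10707951 read 7.76, 7.91, 7.95 and 8.01 against 7.07, 6.97, 7.24 and 7.24, a rise of 0.78 (SE 0.11, adjusted p = 0.001 in limma). Both stayed past the threshold without female control replicates 1 and 3, at 1.2 and 0.80. Probe set 10800515 read 9.28, 9.09, 9.38 and 9.37 against 8.77, 8.78, 8.87 and 8.76. Its values do not overlap, and it rose by 0.49 (SE 0.09, adjusted p = 0.0188 in limma). This call was lost without female control replicates 1 and 3 (0.51, adjusted p = 0.183 in limma), in the fit of the compared groups only (adjusted p = 0.0843) and in 6 of the 8 fits that left out 1 array, with differences of 0.45 to 0.49 and adjusted p of 0.0679 to 0.169. The lower probe set with the smallest p, 10863690, read 9.15, 9.22, 9.28 and 9.44 against 9.64, 9.82, 9.55 and 9.82. The difference of -0.44 (SE 0.09) was not called (adjusted p = 0.076 in limma), but it was with female control replicates 1 and 3 left out (-0.55, adjusted p = 0.035). It was chosen after its values were seen.

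Most exposed arrays of the other groups also lay above the controls for the 4 called probe sets. The exposed female groups are all set against the same 4 controls, so these comparisons are not independent of each other. For Ldaf1, 31 of 32 exposed arrays of the series lay above all 8 controls, whose values ran from 7.88 to 8.29. The postnatal 750 ppm females held place 5 of the 10 groups by mean, next to postnatal 250 ppm females (8.94 ± 0.19) and perinatal 750 ppm males (8.78 ± 0.17), from which they differed by less than the spread. For 10919231, 10707951 and 10800515 they held place 1, and 30, 30 and 26 of the 32 exposed arrays lay above all controls. Perinatal 750 ppm females, whose title numbers follow those of the controls, read 8.77 ± 0.30 for Ldaf1, with 1 array at 8.32, near the controls, and 3 at 8.88 to 8.95. Perinatal 250 ppm females read 8.28, 8.33, 8.34 and 8.73 (8.42 ± 0.21). In that group 3 of the 4 arrays were near the highest control value of 8.29, 1 of them below it.

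**Figure D1:**
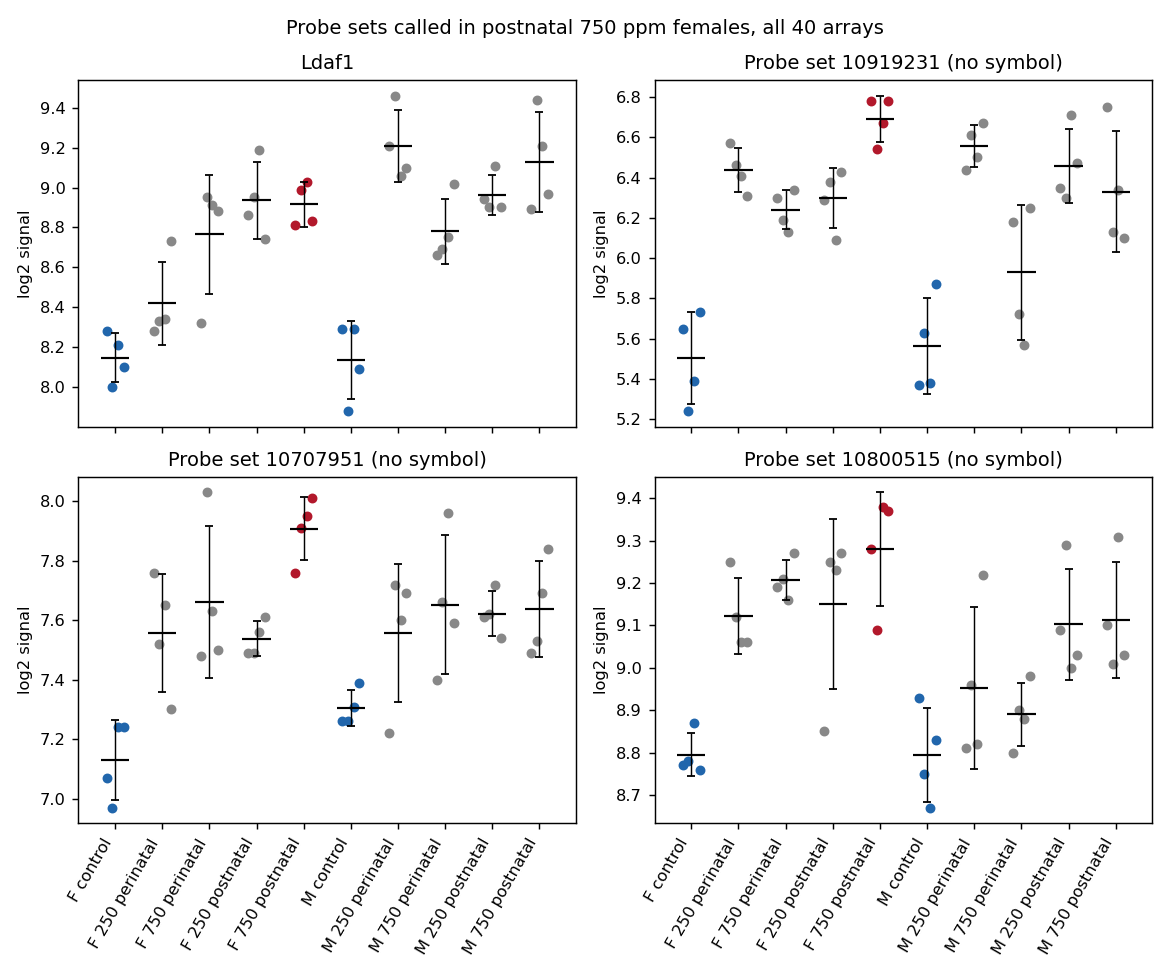
Log2 signal of the 4 called probe sets on each of 40 arrays, by group (F, female; M, male; 250 and 750, ppm lead); red points are postnatal 750 ppm females, blue points controls, grey points other exposed groups, lines the mean and bars the SD of 4 arrays. The red points lie above all blue points in each panel, from 8.81 to 9.03 for Ldaf1 against at most 8.29 in controls.

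Beside Ldaf1, 6 genes were higher in all 4 exposed females than in all 4 controls with an unadjusted p under 0.001, and 5 were lower. None of these 11 passed the adjusted threshold, and their values are given as measured differences. Over all 14506 genes, 12 (0.0827%) met this rule, Ldaf1 included, and 369 (2.54%) had values that did not overlap, at any p. Of those, 231 lay above the controls (1.59%) and 138 below (0.951%).

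Pyroxd2, a mitochondrial oxidoreductase, read 6.92, 7.43, 6.89 and 7.30 in the exposed females and 6.72, 6.44, 6.22 and 6.72 in the controls. The difference was 0.61 (SE 0.15, adjusted p = 0.30 in limma), and against all 8 controls it passed at 0.68 (adjusted p = 0.0269). Mrap2, the accessory protein of melanocortin receptors, read 8.89, 8.67, 8.65 and 8.63 against 8.26, 8.42, 8.46 and 8.31. It differed by 0.35 (SE 0.07, adjusted p = 0.177 in limma) and passed against all 8 controls (0.32, adjusted p = 0.0444) and with array weights (0.35, adjusted p = 0.0387). Its highest exposed array, replicate 1, stood apart from the other 3, and the group held place 1 of 10.

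The other 3 of the 6 higher genes, beside Pyroxd2, Mrap2 and Lyrm1, were Gpr183, Cd44 and Gabarap. Gpr183, the oxysterol receptor that guides B cells and other leukocytes, read 7.24, 7.33, 7.11 and 7.14 against 6.42, 6.96, 6.95 and 6.83, a difference of 0.41 (SE 0.10). Control replicate 1 was the lowest, and without replicates 1 and 3 the difference was 0.31. Cd44, the hyaluronan receptor found on astrocytes and leukocytes, read 7.41, 7.22, 7.40 and 7.26 against 7.04, 7.12, 7.11 and 6.91, a difference of 0.28 (SE 0.07). For Cd44 the postnatal 250 ppm females read 7.04 ± 0.11, the same mean as the controls. Perinatal females, however, read 7.25 to 7.33 at 250 ppm and 7.30 to 7.36 at 750 ppm, all above the female controls. By mean the postnatal 750 ppm females held place 2 of 10 for Cd44. Gabarap, a protein of autophagosomes and of GABA-A receptor traffic, had the smallest difference of the set, 0.12 (SE 0.03), with exposed values of 11.96 to 12.02 and control values of 11.82 to 11.91.

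**Figure D2:**
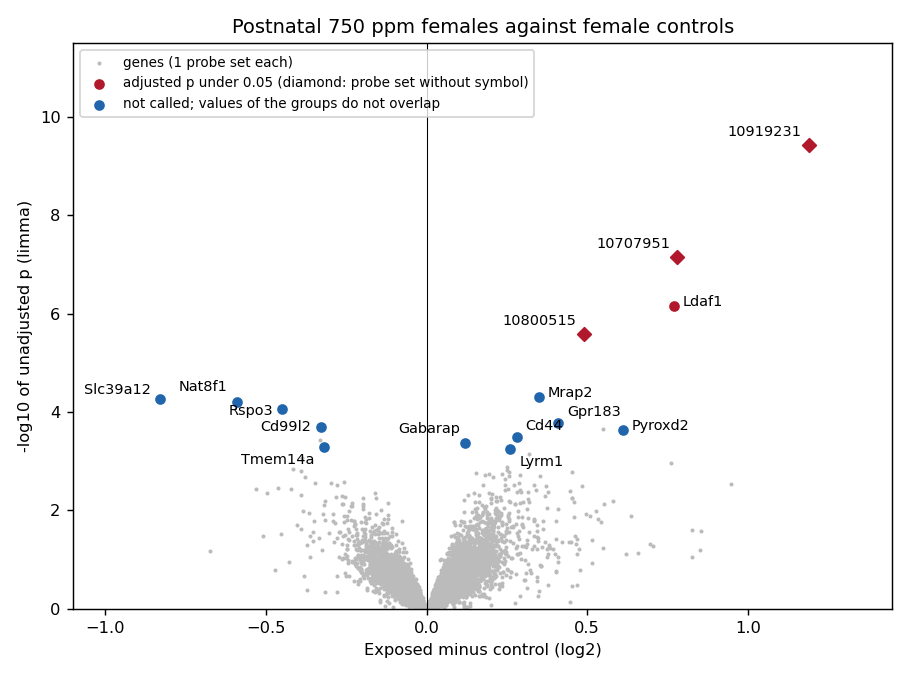
Difference of postnatal 750 ppm females minus female controls (log2, horizontal) against -log10 of the unadjusted limma p (vertical) for 14506 genes and the 3 called probe sets without a symbol. Red marks the 4 called probe sets, all to the right, and blue the 11 genes whose values did not overlap at p under 0.001 without being called, from Slc39a12 at -0.83 to Pyroxd2 at 0.61.

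On the lower side, Slc39a12, the zinc importer ZIP12 of the nervous system, had the largest negative difference of all genes. It read 6.59, 6.53, 6.58 and 6.65 in the exposed females and 7.49, 6.70, 7.80 and 7.66 in the controls, a difference of -0.83 (SE 0.18, adjusted p = 0.177 in limma). The exposed values were close together and the controls were spread, with replicate 2 near the exposed level. The SE and p rest on a spread pooled over all 10 groups, so they do not show the wider spread of these controls alone. Without control replicate 2 the difference was -1.06 (adjusted p = 0.00348 in limma), and without replicates 1 and 3 it was -0.59. Among male controls 1 array was high (7.73) and the others read 6.45 to 6.63. All 32 exposed arrays of the series lay between 6.30 and 6.87, so the high values were those of 4 of the 8 controls.

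Nat8f1, of the N-acetyltransferase 8 family, read 6.27, 6.48, 6.33 and 6.44 in the exposed females against 6.93, 7.06, 7.02 and 6.87 in the controls. The difference was -0.59 (SE 0.13, adjusted p = 0.18 in limma), unchanged at -0.59 without female control replicates 1 and 3, and it passed in the fit of the compared groups only (adjusted p = 0.0468). In females the perinatal 750 ppm group was the highest of the 10 groups for Nat8f1 (7.55), whereas in males the perinatal 750 ppm group was the lowest, at 5.97 to 6.43, and postnatal 750 ppm males read 6.37 to 7.02, near their controls at 6.59 to 6.93. The windows thus stood in the opposite order in the sexes, a difference that was not tested. Rspo3, a secreted enhancer of Wnt signalling, read 8.71, 8.43, 8.51 and 8.54 against 9.01, 9.07, 9.08 and 8.84, a difference of -0.45 (SE 0.10). The exposed females were the lowest of the 10 groups by mean for Rspo3 (8.55 ± 0.12), beside perinatal 750 ppm males at 8.59 ± 0.08. Cd99l2, a membrane protein of leukocyte passage through vessel walls, read 10.52, 10.45, 10.46 and 10.48 against 10.83, 10.88, 10.76 and 10.77. It differed by -0.33 (SE 0.08, adjusted p = 0.30 in limma), and it passed in the fit of the compared groups only (adjusted p = 0.0468). Tmem14a, a mitochondrial membrane protein, read 8.24, 8.07, 8.07 and 8.47 against 8.51, 8.49, 8.61 and 8.5, a difference of -0.32 (SE 0.08), with exposed replicate 4 next to the controls.

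**Figure D3:**
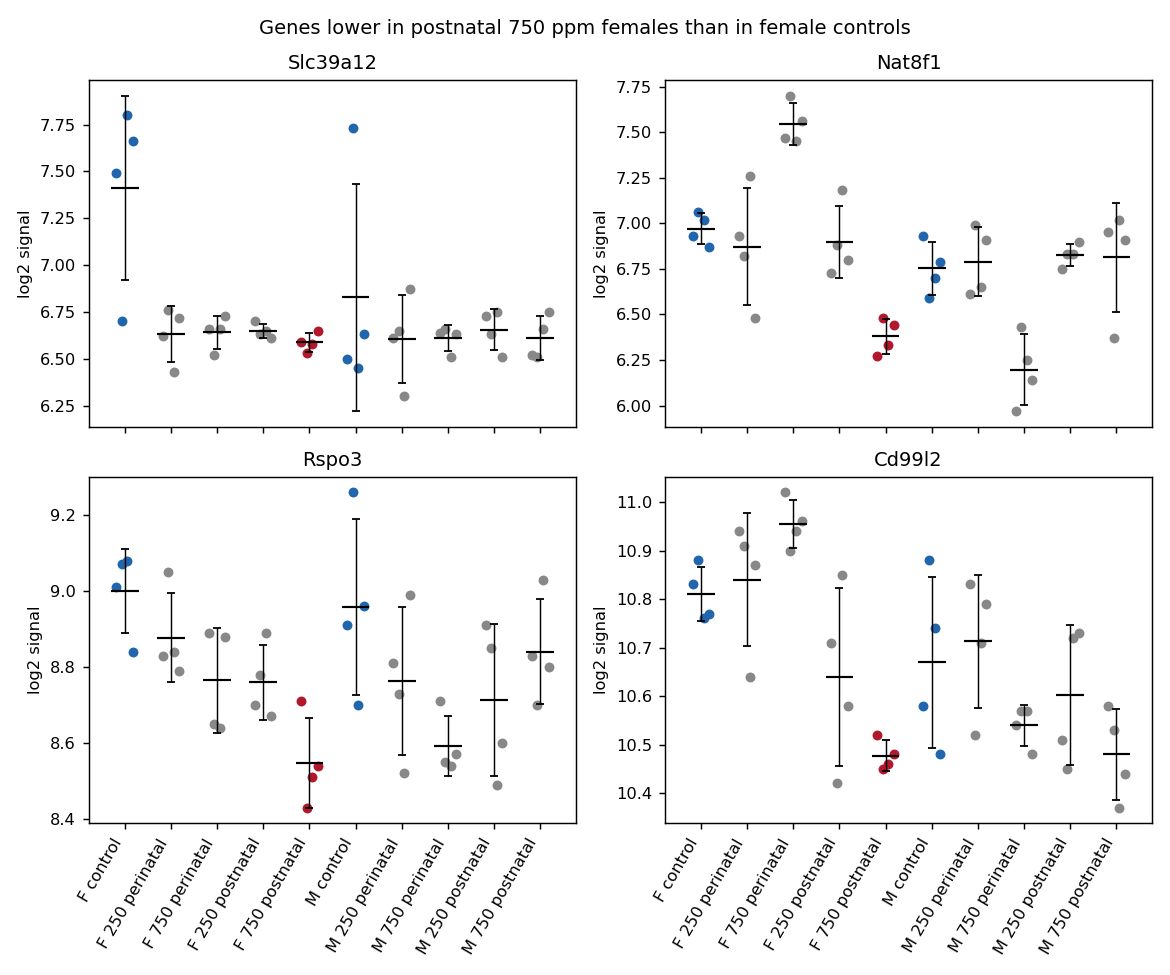
Log2 signal of Slc39a12, Nat8f1, Rspo3 and Cd99l2 on each of 40 arrays, by group (F, female; M, male; 250 and 750, ppm lead); red points are postnatal 750 ppm females, blue points controls, lines the mean and bars the SD of 4 arrays. For Slc39a12 the spread is in the controls (6.45 to 7.80) while every exposed array lies at 6.87 or below; for Nat8f1 the perinatal 750 ppm females (7.55) and the postnatal ones (6.38) lie on opposite sides of the controls (6.97), and among males the perinatal 750 ppm arrays (5.97 to 6.43) are the low ones.

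A list of 11 genes named in other comparisons of the series was measured here too. Comparisons of the other female groups use the same 4 controls, so the list is not independent of the values here. Of these, Ldaf1's neighbour Lyrm1, Pyroxd2, the adhesion adaptor Lims2 and the transcription factor Tfcp2l1 had exposed values above all 4 female controls. Over all genes, 1.59% did. Lims2 read 8.23, 8.03, 8.03 and 8.20 against 7.95, 7.87, 7.84 and 7.65 (0.29, SE 0.09), and Tfcp2l1 read 6.93, 6.78, 6.76 and 6.90 against 6.63, 6.65, 6.63 and 6.58 (0.22, SE 0.08). Both had an adjusted p of 1.0 in limma. Male control replicates 3 and 4 read 6.85 and 6.76 for Tfcp2l1, within its exposed range. Chchd5, a mitochondrial protein, differed by 0.25 (SE 0.11), with exposed replicates 3 and 4 high (9.72 and 9.79) and replicates 1 and 2 (9.39 and 9.31) within the control range. Fcrl2, an Fc receptor-like gene, read 7.14, 6.11, 6.76 and 6.87 against 7.07, 7.01, 7.23 and 7.40, so that 3 exposed arrays lay below the controls and 1 among them (-0.45, SE 0.20). The lowest, replicate 2, carried much of it: without that array the difference was -0.25. Tigar (-0.16), Eefsec (-0.08), Rab7b (0.07), Gpr63 (-0.01) and Tnik (-0.01) overlapped the controls, and the sign of Rab7b and Gpr63 turned against all 8 controls (-0.08 and 0.03).

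Heme synthesis and metal handling, the systems nearest to lead's known targets, held no called gene. Of 12 measured heme genes, 7 were higher and 5 lower, with a median of 0.02 against 0.01 over all genes. Alad, the enzyme that lead inhibits, read 8.75, 8.72, 8.49 and 8.57 in the exposed females and 8.60, 8.77, 8.65 and 8.56 in the controls (-0.02, SE 0.07, or 0.02 against all 8 controls). Ferrochelatase (Fech) differed by -0.03 (SE 0.07). Uros, uroporphyrinogen III synthase, was the member that stood apart, with 7.44, 7.31, 7.25 and 7.28 against 6.53, 7.05, 7.05 and 6.84. All its exposed values lay above the controls, by 0.45 (SE 0.15) with an unadjusted p of 0.00559 and an adjusted p of 1.0 in limma. Over all genes, 1.59% had 4 exposed values above the 4 female controls. Across the series the exposed females were second to postnatal 750 ppm males for Uros (7.32 ± 0.08 and 7.35 ± 0.15).

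For metal handling, 15 of 22 genes were higher and 7 lower, with differences of -0.20 to 0.41 and a median of 0.05. An unadjusted p under 0.05 was reached by 3 higher members and 1 lower, and by 2.57% and 1.13% of all genes. The zinc importer Slc39a12 is not a member of this list. Metallothionein Mt1 read 10.67, 10.40, 10.50 and 10.58 against 10.40, 10.53, 10.15 and 10.38 (0.17, SE 0.09), which overlapped. The ferritin heavy chain Fth1 read 12.56, 12.57, 12.55 and 12.56 against 12.50, 12.45, 12.52 and 12.45, a small difference of 0.08 (SE 0.03). It did not overlap the female controls, as 1.59% of all genes lay above them, but male controls read 12.47 to 12.56. The zinc and manganese importer Slc39a14 differed by 0.16 (SE 0.07) and the copper pump Atp7b by -0.20 (SE 0.09), which was -0.04 without female control replicates 1 and 3.

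Glutamate and GABA receptors stood near the control level. The NMDA receptor subunit Grin1 read 11.15, 11.02, 11.17 and 11.13 in the exposed females and 11.26, 11.11, 11.10 and 11.14 in the controls (-0.03, SE 0.04). Grin2a differed by 0.04 (SE 0.03) and Grin2b by 0.08 (SE 0.04), and the 8 genes of the list ran from -0.08 to 0.08. The 9 AMPA and kainate receptor genes ran from -0.06 to 0.06 and the 9 GABA-A receptor genes from -0.09 to 0.05. No member of these lists was called, nor of the 24 calcium signalling genes (-0.12 to 0.07), the 18 synaptic vesicle genes (-0.07 to 0.06) or the 15 postsynaptic density genes (-0.04 to 0.06).

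Activity-induced genes, which neurons switch on within minutes to hours of firing, were lower in 20 of 23 cases with a median of -0.15, and 0 were called. An unadjusted p under 0.05 was reached by 3 lower members, and by 1.13% of all genes on the lower side. Nr4a1, an orphan nuclear receptor, read 8.84, 9.29, 9.77 and 9.17 in the exposed females and 9.92, 9.91, 8.97 and 9.85 in the controls (-0.39, SE 0.17). Junb, a subunit of the AP-1 factor, read 8.15, 8.56, 8.77 and 8.59 against 9.0, 8.91, 8.34 and 8.94 (-0.28, SE 0.13). Arc, an effector of synaptic plasticity, differed by -0.26 (SE 0.13). In each of the 3 genes control replicate 3 fell among the exposed arrays while the other 3 controls lay above all of them. The mean level of the list was 8.74, 9.03, 9.12 and 8.97 in the exposed arrays and 9.20, 9.22, 8.82 and 9.17 in the controls, and the median was -0.26 without control replicates 1 and 3. With single arrays left out, the median ran from -0.06, without exposed replicate 1, to -0.22, without control replicate 3. The same arrays gave the ends of the range for Arc (-0.12 and -0.42), Nr4a1 (-0.25 and -0.62) and Junb (-0.16 and -0.43), so that these sizes rest on single arrays. Heat shock and endoplasmic reticulum chaperone genes were lower in 17 of 22, over a range of -0.14 (Manf) to 0.05.

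Markers of the meninges, the membranes around the brain, were the list with the largest shift. All 23 measured meningeal fibroblast genes were higher, with differences of 0.09 to 0.85 and a median of 0.38, yet 0 were called, 3 had an unadjusted p under 0.05 and in 0 did the groups stand apart. Over all 14506 genes, 7807 were higher, and 2.57% were higher with an unadjusted p under 0.05. Aldh1a2, a retinoic acid synthesis enzyme, read 8.36, 8.01, 7.48 and 7.70 in the exposed females and 6.42, 6.36, 7.35 and 8.0 in the controls (0.85, SE 0.37). The proteoglycan Bgn differed by 0.35 (SE 0.16) and the dicarboxylate transporter Slc13a3 by 0.44 (SE 0.21). The mean level of the list was 8.76, 8.85, 8.32 and 8.56 in the exposed arrays and 7.66, 8.09, 8.33 and 8.78 in the controls. Control replicate 4 was as high as the exposed arrays and control replicate 1 was the lowest, and without control replicates 1 and 3 the median was 0.19, with 20 of 23 higher. Without control replicate 1 alone it was 0.21. In bulk tissue, more cells of a type and more RNA per cell cannot be told apart.

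Vessel-wall markers were also higher in most cases, with 0 called. Mural cell markers were higher in 13 of 14, with a median of 0.16 (11 of 14 and 0.11 without control replicates 1 and 3), and Tagln, a smooth muscle actin-binding protein, read 8.88, 8.90, 8.30 and 8.56 against 7.91, 8.23, 7.84 and 8.52 (0.53, SE 0.21). Endothelial markers were higher in 18 of 21, with a median of 0.12, which was 0.01 without control replicates 1 and 3. The tight junction claudin Cldn5 read 8.41, 8.34, 8.19 and 8.23 against 8.14, 8.06, 8.19 and 7.95 (0.21, SE 0.09), and the adhesion molecule Pecam1 differed by 0.29 (SE 0.11), whereas the receptor Cd93 differed by -0.21 (SE 0.11). Tbx18, a transcription factor of mural and meningeal cells, read 6.96, 6.94, 6.59 and 7.05 against 6.12, 6.21, 6.23 and 6.78. Its difference of 0.55 (SE 0.13) was not called (adjusted p = 0.30 in limma) but passed without female control replicate 4 (0.70, adjusted p = 0.0386). Tbx18 was chosen after its values were seen. The part of meningeal content in Tbx18 and the vascular genes was not tested.

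**Figure D4:**
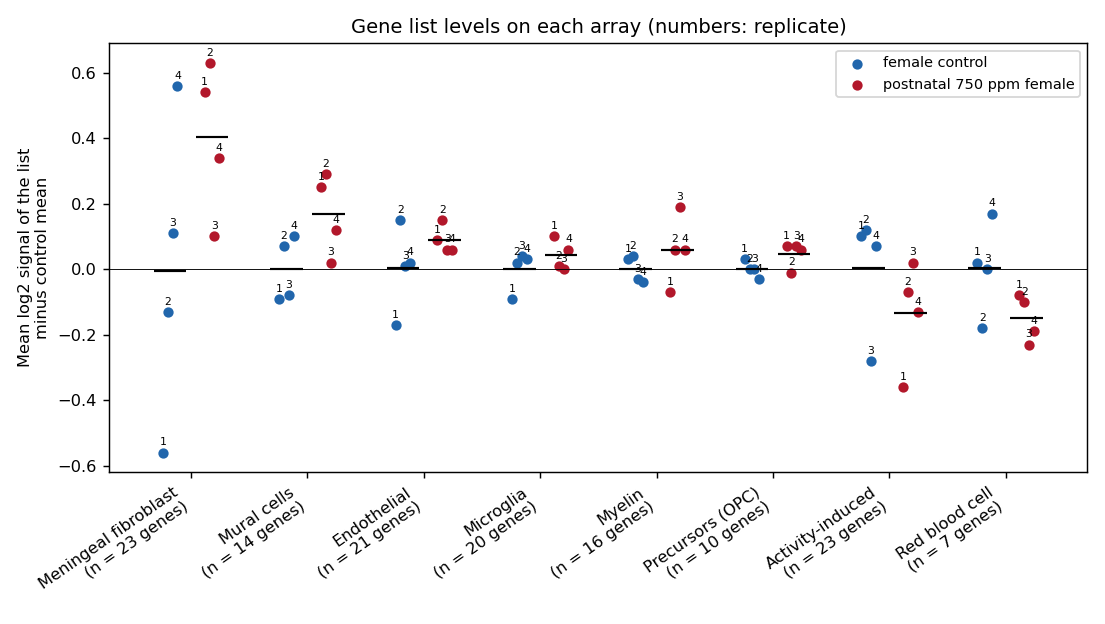
Mean log2 signal of 8 gene lists on each array, minus the mean of the 4 female controls; blue points are controls, red points postnatal 750 ppm females, numbers the replicate and lines the group mean. Meningeal levels of the exposed arrays (8.32 to 8.85) overlap those of the controls (7.66 to 8.78), and control replicate 3 is the control whose activity-induced level (8.82) lies among the exposed ones.

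Among glia, microglial markers were higher in 15 of 20 with a median of 0.03. Without female control replicates 1 and 3 they were higher in 10 of 20 with a median of 0.0, and with single arrays left out the median ran from 0.0044 to 0.05. Control replicate 1 had the lowest mean level of this list (7.96), and leaving it out gave the lowest median. Ctss, a lysosomal protease of microglia, read 10.97, 10.97, 10.89 and 10.90 against 10.71, 10.82, 10.79 and 10.72 (0.17, SE 0.07), without overlap. The complement gene C1qa (0.24, SE 0.10) and the lysosomal protein Cd68 (0.25, SE 0.11) overlapped the controls. For Cd68 the difference was 0.12 without control replicate 1 alone, which read 5.98, and 0.09 without control replicates 1 and 3. Oligodendrocyte precursor markers were higher in 8 of 10. The growth factor receptor Pdgfra (0.15, SE 0.06) and the receptor Gpr17 (0.16, SE 0.07) did not overlap the female controls. Values above all 4 female controls, as for Ctss, Pdgfra and Gpr17, were seen in 1.59% of all genes. Male control replicates 1 and 2 read 9.40 and 9.41 for Gpr17, within its exposed range. Myelin genes were higher in 14 of 16 with a median of 0.07 and astrocyte genes in 10 of 17 with a median of 0.01. Neuronal markers were present at high signal in every array, with list means of 10.06 to 10.17 for granule and pyramidal cells, 11 of 18 genes higher and a median of 0.01.

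In the immune and hormone lists 0 members were called. The members named here were picked by smallest p, so larger differences than the list medians follow from that choice. RT1-Da, Klf9 and Zbtb16 overlapped the female controls, and Oas1a cleared them narrowly (6.38 against 6.37). Of all genes, 1.59% had exposed values above all 4 female controls. Interferon genes were higher in 12 of 19 (median 0.06), with the sensor of double-stranded RNA Oas1a at 6.42, 6.54, 6.38 and 6.75 against 5.78, 6.14, 6.32 and 6.37 (0.37, SE 0.18). The class II gene RT1-Da differed by 0.46 (SE 0.23), through exposed replicates 1 and 2 (7.12 and 7.36), and by 0.27 without control replicate 1. Klf9, a glucocorticoid-induced transcription factor, read 9.91, 9.76, 9.82 and 9.98 against 10.39, 10.38, 9.84 and 10.24. The difference of -0.35 (SE 0.11) had an unadjusted p of 0.00276, and male controls read 9.74 to 10.23. Against all 8 controls it was -0.21. Zbtb16, of the same list, differed by 0.19 (SE 0.09), and the median of the 15 glucocorticoid genes was 0.01.

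Content of neighbouring tissue varied within both groups. Ttr, the transport protein that choroid plexus makes in bulk, read 9.16, 13.49, 13.19 and 13.19 in the exposed females and 8.61, 13.35, 13.28 and 13.29 in the controls, so that replicate 1 of each group was far below the other 3. The median of the 13 choroid and ependymal genes was 0.02, and -0.69 without control replicates 1 and 3. Red blood cell genes were lower in 6 of 7 (median -0.15, or -0.08 without exposed replicate 3) and liver genes in 9 of 13 (median -0.01). In all 29 lists, 463 of 515 genes were measured, 1 was called and 36 had an unadjusted p under 0.05, beside 537 (3.70%) of all genes.

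Against postnatal 250 ppm females, which shared the window and differed in dose, 0 of 29214 probe sets were called by limma (0.0%), with a smallest adjusted p of 0.0926 and 1068 at an unadjusted p under 0.05. Ldaf1 differed by -0.02, Lyrm1 by -0.02, Pyroxd2 by -0.01 and Uros by 0.02 between the doses. Larger differences without a call were those of Nat8f1 (-0.52), Cd44 (0.28) and Tmem14a (-0.30), whose 250 ppm means of 6.90, 7.04 and 8.51 were near those of the controls. Rab7b (-0.50), the kinase Tnik (0.45) and Tigar (-0.35) had the smallest p among named genes. For these genes the 250 ppm females did not overlap the controls. Rab7b read 7.92 to 8.12 against 7.15 to 7.66, Tnik 9.65 to 9.94 against 10.19 to 10.30, and Tigar 9.11 to 9.22 against 8.91 to 9.09. The 750 ppm females read 7.44 to 7.69, 10.15 to 10.33 and 8.66 to 8.94, which overlapped the controls. These genes belong to the list named in other comparisons of the series. That list was written with earlier results of these arrays known. The gap between 250 ppm females and the shared controls is therefore not an independent result. All 23 meningeal genes were higher at 750 ppm (median 0.41) and 1 of 16 myelin genes was (median -0.15). The array means of both lists overlapped between the doses. Meningeal means were 8.32 to 8.85 at 750 ppm and 7.88 to 8.63 at 250 ppm. Myelin means were 10.52 to 10.78 at 750 ppm and 10.68 to 10.96 at 250 ppm.

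Against perinatal 750 ppm females, which shared the dose, limma called 16 probe sets (0.0548%), 2 higher and 14 lower in the postnatal group. Nat8f1 read 7.47, 7.70, 7.45 and 7.56 in the perinatal females and 6.27, 6.48, 6.33 and 6.44 in the postnatal ones. The postnatal values were lower by a wide gap, -1.17 (SE 0.13, adjusted p = 8.43e-07 in limma). Cd99l2 read 10.90 to 11.02 after perinatal exposure, all above the 10.45 to 10.52 of the postnatal females (-0.48, SE 0.08, adjusted p = 0.00243 in limma). The plasma protein genes Alb (-1.07, SE 0.14) and Apoc3 (-0.75, SE 0.13) were lower as well. Here the postnatal females read 5.86 to 6.14 and 6.27 to 6.45, as the controls did (5.86 to 6.24 and 6.22 to 6.42), and the perinatal females were the high group. Probe set 10863690 was lower too (-0.59, SE 0.09, adjusted p = 0.000247 in limma), and Ldaf1 was not called (0.15, SE 0.13). These windows also differ in title numbers, so window and number range cannot be told apart.

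In postnatal 750 ppm males, measured against their own controls, 13 probe sets were called (0.0445%). Ldaf1 differed by 0.99 there, Pyroxd2 by 0.89, Lyrm1 by 0.40 and Uros by 0.61, against 0.77, 0.61, 0.26 and 0.45 in females. The test of the difference between the sexes called 0 of 29214 probe sets in limma (0.0%; smallest adjusted p 0.996; 1241 at an unadjusted p under 0.05). For Ldaf1 the female minus male effect was -0.22 (SE 0.18). Nat8f1 differed by -0.59 in females and 0.06 in males, a difference of -0.65 (SE 0.18), and Fcrl2 by -0.45 and -1.53, a difference of 1.08 (SE 0.28), neither called. The smallest p belonged to the olfactory receptor genes Or4f57 (0.61, SE 0.14) and Or10ak14 (0.66, SE 0.16), at signals near 4, and to the cell cycle phosphatase Cdkn3 (-0.60, SE 0.15). Red blood cell genes had a median of 0.53 in males and -0.15 in females, with Hbb-b1 at 0.70 and -0.25.

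**Figure D5:**
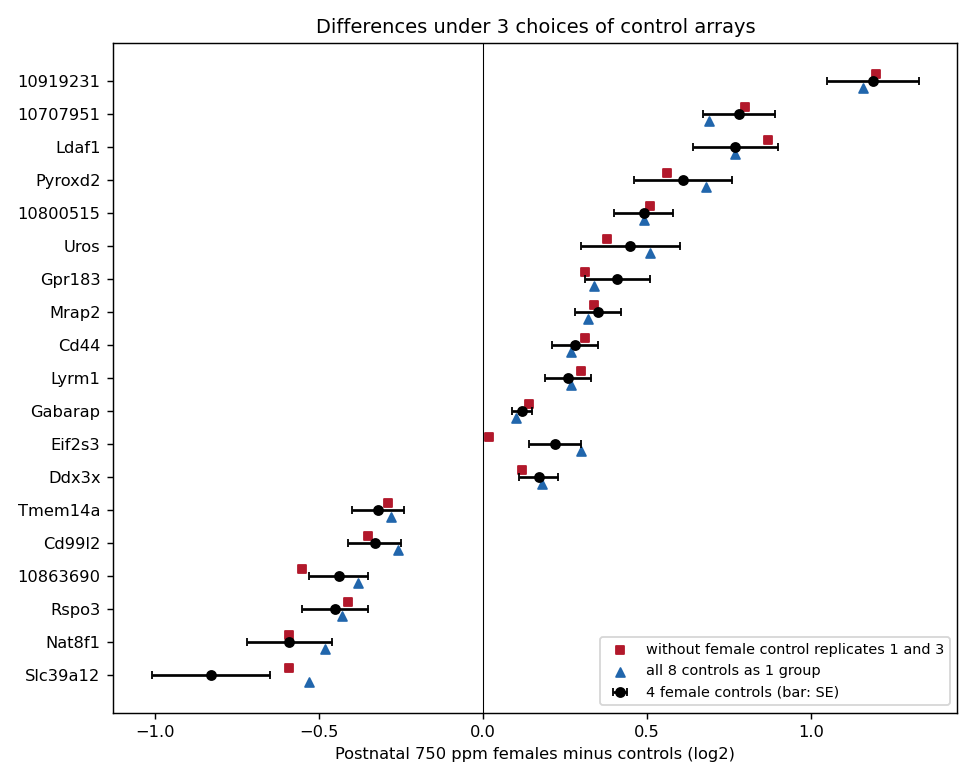
Difference of postnatal 750 ppm females minus controls (log2) for 19 genes and probe sets, with all 4 female controls (black, bar: SE), without female control replicates 1 and 3 (red squares) and against all 8 controls (blue triangles). Signs are the same under the 3 choices; Slc39a12 moves from -0.83 to -0.59 and -0.53, and the X-linked Eif2s3 from 0.22 to 0.02 and 0.30.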

How the data were processed

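Hippocampal RNA of 40 rats was hybridised to Affymetrix rat gene arrays, 1 array a sample. The authors deposited log2 values made with RMA, which corrects background, equalises array distributions and summarises probes, and Partek is named too, per the submitters' processing notes; versions are not given in the sources used here. The values were used as deposited. Symbols came from the platform annotation, with 2 updated through RefSeq.

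A model with a mean for each of 10 groups was fitted with limma 3.58.1 (R 4.3.3), with a variance trend. P-values are two-sided. Promoters came from RefSeq tables.

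Named were called probe sets, genes with an unadjusted p under 0.001 and no overlap, the 3 members of smallest p in each list, known lead targets, genes named elsewhere in the series, neighbours of Ldaf1 and the 5 genes most like it, and in the other comparisons up to 3 called genes each way or the 3 of smallest p. Members, lists and rule were chosen with earlier results of these data known. Tbx18, Ttr, Eif2s3 and 10863690 were chosen after their values were seen. The fit was tested on simulated data. Alternatives were a filter on the dimmest 40%, quantile normalization, array weights, other variance settings, other controls and leaving out arrays. The number of arrays limits the precision.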

Additional observations from a re-analysis of the deposited data

Results flagged for a closer look

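Of 254 groups of 4 values looked at, 23 held 1 value far from the other 3 by Dixon's ratio, and chance alone gives about 1 in 20. Control replicate 3 was the lowest for Nr4a1 (8.97), Junb (8.34), Arc (10.08) and Ngfr (6.54), for the mean level of activity-induced genes (8.82), and the highest for Tmem14a (8.61). Control replicate 1 was the lowest for Ttr (8.61), Txnip (9.40), the choroid and ependyma list (6.61) and the microglia list (7.96), and the highest for Or4f57 (4.10). Control replicate 2 was the highest for the lipid droplet list (8.15) and the liver list (5.78). Control replicate 4 was the highest for Tbx18 (6.78) and the lowest for Gpr63 (8.98). Exposed replicate 1 was the lowest for Ttr (9.16) and the highest for Mrap2 (8.89), Pdgfra (9.59) and the metal handling list (9.18). Exposed replicate 2 was the lowest for Alb (5.86) and the precursor list (8.99), and exposed replicate 4 was the lowest for Gabra2 (11.52) and the highest for Abhd5 (8.90).

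Between the windows at 750 ppm, the tested differences of postnatal minus perinatal females passed in limma for Nat8f1 (-1.17), Alb (-1.07), Apoc3 (-0.75), probe set 10863690 (-0.59) and Cd99l2 (-0.48).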

How the results depend on the processing

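The count of called probe sets against controls was 8 with array weights and 9 against all 8 controls, and ran from 2 to 7 with single arrays left out. For dose it was 9 with array weights, 1 without 3 male arrays of flattened signal and 0 to 1 with single arrays left out. For window it was 8 without the dimmest probe sets, 7 in the fit of the compared groups only, 34 with array weights and 12 to 20 with single arrays left out. For sex it was 0 throughout. The cause of these shifts was not tested. Of 1623 values of 96 genes and probe sets under alternatives, 1565 kept direction and side of the threshold, 10 lost a call, 15 gained one and 33 changed sign, in 10 genes that lay near 0 or, for Ttr, varied widely. With array weights Bscl2 read 0.0043, Tnik 0.01, Alad 0.0023, Fech 0.00017 and Ttr -0.13. Against all 8 controls Rab7b read -0.08, Gpr63 0.03, Alad 0.02 and Alb 0.05. Without the controls that go against their sex label Bscl2 read 0.01, Gpr63 0.01, Apoc3 -0.01 and Ttr -1.06. With single arrays left out, Bscl2 ran from -0.05 to 0.01, Rab7b from -0.03 to 0.14, Gpr63 from -0.03 to 0.03, Tnik from -0.03 to 0.03, Grin1 from -0.05 to 0.00084, Alad from -0.06 to 0.03, Fech from -0.08 to 0.03, Alb from -0.11 to 0.03 and Ttr from -1.05 to 1.16. No paired analysis was possible because the titles carry sample numbers and no replicate numbers shared between groups.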

Other observations

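Other lists held no called gene. Oxidative defence genes were higher in 16 of 25 (median 0.02), with Txnip, the thioredoxin inhibitor, at 9.74, 10.13, 9.85 and 9.72 in the exposed females and 9.40, 9.66, 9.71 and 9.68 in the controls (0.25, SE 0.15) and glutathione reductase Gsr at 0.10. Interneuron markers were higher in 10 of 18 (median 0.02), and the neuropeptide Cck read 11.21, 11.19, 11.27 and 11.29 against 11.19, 11.51, 11.28 and 11.60 (-0.16, SE 0.08). Neurotrophin genes were higher in 4 of 9, with the receptor Ngfr at -0.14, and DNA methylation genes in 5 of 8, with the methyltransferase Dnmt3a at 0.10. Markers of striatum, thalamus, cortex and hypothalamus were higher in 6 of 15, with the hormone gene Avp at -0.16.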
